A study of Mus musculus with 6 samples.

Results

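The major urinary protein (Mup) genes encode small secreted lipocalins, and the 5 described here are Mup3, Mup7, Mup12, Mup20 and Mup21, taken by symbol from a liver count table of 24421 genes. RNA was sequenced in 6 liver samples of male C57BL/6 mice at an age of 4 months, 3 labelled Sesn3 KO (KO replicates 1 to 3) and 3 labelled wild type (WT replicates 1 to 3). Mice of both genotypes ate the same diet for 4 weeks, with 20% of energy from protein, 40% from fat and 40% from carbohydrate, to which cholesterol (1.25%) and the bile salt sodium cholate (0.5%) were added. Sesn3, the gene named in the KO label, encodes sestrin 3, a stress-inducible regulator of mTORC1 and AMPK signalling. How the Sesn3 allele was made, whether it is restricted to some cells, and whether livers were pooled was not stated. The comparison of KO with WT asks which liver RNAs depend on the Sesn3 genotype under this feeding, and since no source states that the samples came from separate animals, p-values measure the spread between these samples only.

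Mouse hepatocytes make major urinary proteins and release them into blood, from where they pass through the kidney into urine. Their barrel-shaped pocket binds small volatile pheromones and lets them go slowly from scent marks. Adult male liver makes more of them than female liver, under pulsatile growth hormone acting through its receptor, JAK2 and STAT5b, with androgen, thyroid hormone and glucocorticoid as further regulators. Mup20 encodes darcin, the male urinary protein that attracts females. The family arose by repeated duplication on chromosome 4, and many of its copies are nearly identical.

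The libraries held between 18882220 and 24098512 counts. Sesn3 itself had 16 to 18 counts in the libraries labelled KO and 172 to 200 in those labelled WT. On the second principal component of the 500 most variable genes, WT replicate 1 (22.7) and WT replicate 2 (-22.1) lay at opposite ends. Values without a library are given where leaving it out ended a call or moved a value by over 1.5 times. The liver label was checked against 10 hepatocyte markers, all of which had counts and none of which passed the edgeR test (3 had an unadjusted p under 0.05, and DESeq2 called 3 lower and limma-voom none; Alb, serum albumin, was at 76174 ± 8093 CPM in KO and 71714 ± 25184 CPM in WT, SD, n = 3 each). Their summed level was 128759 to 151883 CPM in KO and 110929 to 167742 CPM in WT.

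In GENCODE M21 (build GRCm38, the same assembly as mm10) the cluster held 22 protein-coding Mup genes and 26 Mup pseudogenes, the coding genes spanning 2194.1 kb of chromosome 4. All 5 genes described here are protein-coding, lie on the minus strand and overlap no other annotated gene. Mup7 lies at chr4:60066469-60070475 and Mup12 at chr4:60737383-60741326, both inside the central array of copies. Mup20 lies at chr4:62050234-62054158, Mup3 at chr4:62083476-62087342 and Mup21 at chr4:62147932-62150863, at the other end of the cluster.

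How alike the copies are decides how far a read can be given to 1 row of the table, so the coding sequences were compared over the bases that align. Mup7 and Mup12 differed at 4 of 540 aligned bases (99.3% identity), and Mup12 differed from Mup1, another family member, at 2. Mup3 and Mup21 differed at 20 of 543 bases (96.3%). Between these pairs identity was 83.9% for Mup7 with Mup3 and 84.4% for Mup12 with Mup21. Mup20 lay between them, with 87.5% identity to Mup21, 88.0% to Mup3, 90.6% to Mup7 and 91.1% to Mup12. The 60-base stretch of coding sequence in which the 5 genes differed at most positions (25) is printed, because its letters tell these 5 apart. With it stand 3 further copies, of which Mup1 and Mup14 cannot be told from Mup12 here. Sequences are from GENCODE transcripts, read 5′ to 3′, and capitals mark bases that differ from Mup7.
Mup7: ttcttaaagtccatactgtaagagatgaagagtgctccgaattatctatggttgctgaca
Mup12: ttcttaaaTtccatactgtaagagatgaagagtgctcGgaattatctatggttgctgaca
Mup1: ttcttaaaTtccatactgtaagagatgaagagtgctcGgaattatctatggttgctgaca
Mup14: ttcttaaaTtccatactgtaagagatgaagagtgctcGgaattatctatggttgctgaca
Mup9: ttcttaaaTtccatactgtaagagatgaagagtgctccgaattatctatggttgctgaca
Mup20: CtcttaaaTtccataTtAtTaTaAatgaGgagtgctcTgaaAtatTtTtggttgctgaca
Mup3: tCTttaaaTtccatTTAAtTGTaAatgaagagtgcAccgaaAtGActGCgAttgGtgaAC
Mup21: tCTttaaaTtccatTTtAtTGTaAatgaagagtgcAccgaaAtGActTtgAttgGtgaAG

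In this stretch Mup12, Mup1 and Mup14 read the same letters and differed from Mup7 at 2 positions, while Mup20 differed from Mup7 at 12, Mup21 at 19 and Mup3 at 21. Over whole transcripts, 86.7% of the 50-base words of Mup7 and 85.4% of those of Mup12 also occurred in a transcript of another gene. The share was 50.5% for Mup20, 19.3% for Mup21 and 13.3% for Mup3. For Mup20 the gene that shared most words was the pseudogene Mup-ps19, with 48.0% of them. How reads matching more than 1 gene were counted was not stated, so the values of Mup7 and Mup12 are uncertain as single genes. Those of Mup20, with 50.5% of words shared, are uncertain to a lesser degree. The values of Mup3 and Mup21 rest on mostly private sequence.

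**Figure D1:**
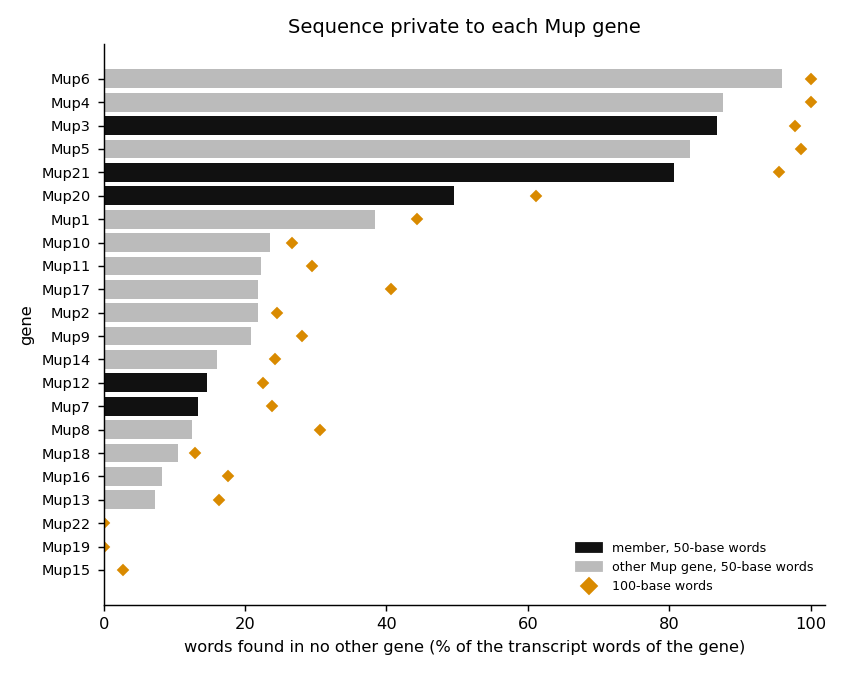
Share of the transcript words of each Mup gene (horizontal axis, percent) that occurred in no transcript of another gene, for 22 genes; bars are 50-base words, black for the 5 genes described, and diamonds are 100-base words. Mup3 (86.7%) and Mup21 (80.7%) had long black bars, Mup20 was at 49.5%, and Mup12 (14.6%) and Mup7 (13.3%) were low.

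Promoter sequences of Mup3, Mup7 and Mup21 were given in RefSeq (build GRCm38.p6), 3 of the 5 genes. Those of Mup3 and Mup21 are printed because these neighbouring genes had similar falls in KO, described later. Each covers 250 bases before to 50 after the annotated start, 5′ to 3′ on the minus strand, at chr4:62087268-62087567 for Mup3 and chr4:62150792-62151091 for Mup21, and capitals mark bases that differ between the 2 or have no partner in the alignment.
Mup3: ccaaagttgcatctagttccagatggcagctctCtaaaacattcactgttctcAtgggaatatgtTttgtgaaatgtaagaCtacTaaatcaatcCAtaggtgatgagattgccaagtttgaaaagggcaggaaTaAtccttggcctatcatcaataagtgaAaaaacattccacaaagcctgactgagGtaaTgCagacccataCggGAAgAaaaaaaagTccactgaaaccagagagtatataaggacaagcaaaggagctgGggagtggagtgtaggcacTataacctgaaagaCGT
Mup21: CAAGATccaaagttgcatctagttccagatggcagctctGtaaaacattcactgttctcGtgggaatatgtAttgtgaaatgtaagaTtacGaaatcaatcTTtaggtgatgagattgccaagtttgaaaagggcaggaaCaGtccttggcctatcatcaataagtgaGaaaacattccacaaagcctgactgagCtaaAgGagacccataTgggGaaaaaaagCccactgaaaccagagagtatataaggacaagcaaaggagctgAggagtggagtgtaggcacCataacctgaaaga

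Of 294 aligned bases in these promoters, 18 differed (93.9% identity). Whether this likeness bears on the falls was not tested, and no promoter was given for Mup20, the other neighbour of Mup3. The letters TTCNNNGAA, the palindromic STAT5 motif, occurred in none of the 14 Mup promoters given and in 8.3% of 32851 promoters of the same length, searched on both strands. TTGCNNAA, a C/EBP motif, occurred in none of the 14 and in 10.8% of all. CAAAGTCCA, an HNF4 motif, was in none of the 14 and in 0.475% of all, and the palindromic HNF1 motif in none of the 14 and in 0.00913% of all. TATAAA occurred in 2 of the 14, Mup4 and Mup6, and in 13.6% of all. An absent match says only that these exact letters are not in the window, and both promoters printed above read tatataagg. Windows follow the annotated start of each gene, so they do not all cover the same region.

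All 5 Mup genes fell in KO. The sum of their CPM (counts per 1e6 counts of the library, scaled by TMM factors) was 7995, 29394 and 17041 in WT replicates 1 to 3 and 3749, 2444 and 3400 in KO replicates 1 to 3. Each KO library was below each WT library, and the ratio of the group means was 5.67 (18143 ± 10742 against 3198 ± 676 CPM, SD, n = 3 each). Without Mup20 the sum of the other 4 was 19.2-fold lower, at 8013 ± 5188 CPM in WT and 416 ± 133 CPM in KO (SD, n = 3 each), and without WT replicate 2 that ratio was 12.5. No test was run on these sums, since they add up chosen genes.

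**Figure D2:**
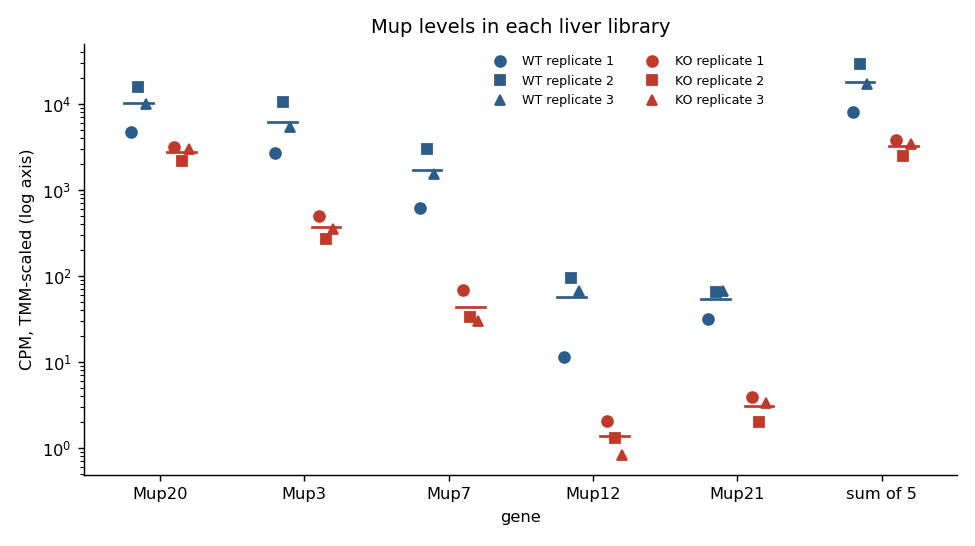
Level of each Mup gene and of their sum in each library (vertical axis, TMM-scaled CPM on a log axis); points are libraries, marked by genotype and replicate, and bars are group means. The WT points lie above the KO points for each gene, with the smallest gap for Mup20 (lowest WT 4658 CPM, highest KO 3186 CPM).

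The darcin gene Mup20 had 4658, 15799.5 and 9934 CPM in WT replicates 1 to 3 and 3186, 2141 and 3017 CPM in KO replicates 1 to 3. The lowest WT library was 1.46 times the highest KO library, so the groups did not overlap but lay close. Its level fell 3.64-fold (log2 fold change -1.86, SE 0.44, edgeR adjusted p = 0.0498). Among the 6 fits without 1 library it passed only without WT replicate 1 (adjusted p of 0.0167, and of up to 0.180 without KO replicate 2). It also missed the threshold under 5 of 9 other settings of normalization, filter or test, at adjusted p between 0.0503 and 0.0546.

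Mup3, its neighbour in the cluster, was at 2679, 10465 and 5432 CPM in WT and at 489, 266 and 349 CPM in KO replicates 1 to 3. Every WT library was at least 5.47 times the highest KO library. The fall was 16.8-fold (log2 fold change -4.07, SE 0.55, edgeR adjusted p = 0.0113). Leaving out KO replicate 2 gave an adjusted p of 0.0676 and leaving out KO replicate 3 gave 0.0536, and without WT replicate 2 it was 11.0-fold.

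Mup21, the outermost gene of the cluster on that side, had few counts, 601, 1115 and 1251 in WT and 93, 51 and 77 in KO. In CPM it was at 31.4, 64.8 and 66.8 in WT and at 3.93, 1.97 and 3.32 in KO, with no overlap. The decrease was 17.7-fold (log2 fold change -4.15, SE 0.39, edgeR adjusted p = 0.00429) and was the only one of the 5 that passed in each of the 6 fits without 1 library (adjusted p of up to 0.0324).

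Mup7, of the array of near-identical copies, was at 615, 2971 and 1542 CPM in WT and at 67.8, 33.0 and 29.5 CPM in KO replicates 1 to 3. The lowest WT library was 9.06 times the highest KO library, the widest gap among the 5. The fall was 39.3-fold (log2 fold change -5.30, SE 0.69, edgeR adjusted p = 0.0106). It missed the threshold without KO replicate 2 (adjusted p = 0.0659) and KO replicate 3 (0.0503), and without WT replicate 2 the fall was 24.8-fold.

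Mup12 had 218, 1606 and 1233 counts in WT and 48, 34 and 19 in KO. That was 11.4, 93.3 and 65.8 CPM in WT against 2.03, 1.31 and 0.818 CPM in KO, again without overlap. It fell 40.8-fold (log2 fold change -5.35, SE 0.83, edgeR adjusted p = 0.0172). The call was lost on leaving out any KO library or WT replicate 3 (adjusted p between 0.0531 and 0.0888) and with limma-voom (0.0926).

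Among all 12945 genes tested, 3.58% passed as lower in KO and 3.36% as higher, 6.94% in all. For 16.6% of the tested genes the KO libraries were all below the WT libraries, as they were for all 5 Mup genes. All 5 passed the filter on low counts and all were called lower, Mup20 only just. These 5 were chosen with earlier results of these data known, so neither this count nor their ranks are independent of those results. Without KO replicate 2 or KO replicate 3 only Mup21 passed, with 0.405% and 0.997% of genes called lower in those fits. With KO replicate 1 or WT replicate 3 left out 3 passed, with 1.15% of genes called lower in each of these fits. Without WT replicate 2 it was 4 (3.6% of genes), and without WT replicate 1 all 5 (3.49%). Ranked from the largest fall among the 12945 genes, Mup12 was at rank 8, Mup7 at 9, Mup21 at 23, Mup3 at 24 and Mup20 at 136.

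By size of the fitted fall the genes were ordered Mup12 and Mup7, then Mup21 and Mup3, then Mup20. Mup12 and Mup7 differed by 0.05 and Mup21 and Mup3 by 0.08 on the log2 scale, each less than the standard errors. The step from Mup7 to Mup21 was 1.15, and their 95% intervals overlapped widely (-6.92 to -3.68 and -5.06 to -3.24). The step from Mup3 to Mup20 was 2.21, and their intervals overlapped slightly (-5.36 to -2.78 and -2.90 to -0.83). In each of the 6 fits without 1 library, Mup20 fell least and Mup7 and Mup12 fell most, while the order within Mup7 and Mup12, and within Mup21 and Mup3, changed between fits.

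**Figure D3:**
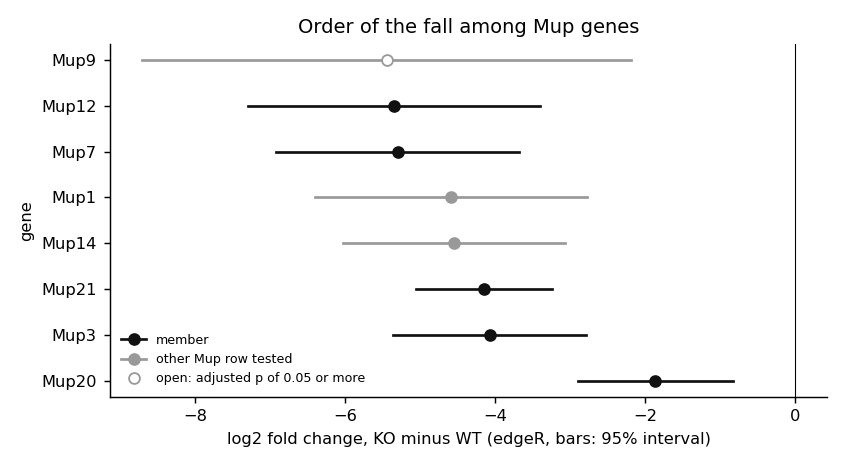
Log2 fold change of KO minus WT (horizontal axis) for the 5 Mup genes (black) and the 3 other Mup rows with enough counts to test (grey); bars are 95% intervals from edgeR, and an open point did not pass. The point of Mup20 is at -1.86 and the other points lie between -5.45 and -4.07. The interval of Mup20 (-2.90 to -0.83) overlaps those of Mup3, Mup1 and Mup9, which reach -2.78, -2.77 and -2.19.

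The order was also read within each library, where the ratio of 2 genes does not depend on scaling. Counts of Mup3 per count of Mup20 were 0.575, 0.662 and 0.547 in WT replicates 1 to 3 and 0.154, 0.124 and 0.116 in KO replicates 1 to 3. The WT ratios were close to each other although the level of each gene differed several-fold between those libraries. On the log2 scale the difference, KO minus WT, was -2.19 (-2.94 ± 0.21 against -0.75 ± 0.14, SD, n = 3 each). The same shift shows in the make-up of the summed counts of the 5 genes. Mup20 held 58.3%, 53.8% and 58.3% of them in WT replicates 1 to 3 and 85.0%, 87.6% and 88.7% in KO replicates 1 to 3. The largest half-width of the exact 95% binomial intervals, which cover counting error only, was 0.257 points. Mup3 held 33.5%, 35.6% and 31.9% in WT and 13.1%, 10.9% and 10.3% in KO, with a largest half-width of 0.244 points.

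The ratio of Mup3 to Mup7, where neither is the most abundant gene, also separated the genotypes. There were 4.36, 3.52 and 3.52 counts of Mup3 for each count of Mup7 in WT and 7.21, 8.07 and 11.8 in KO, a log2 difference of 1.22. The log2 difference was -3.41 for Mup7 over Mup20, -3.27 for Mup12 over Mup20 and 2.41 for Mup20 over Mup21. In 6 of the 10 pairs the ratios of KO and WT did not overlap: each of the 4 pairs with Mup20, Mup3 over Mup7, and Mup7 over Mup21. These 6 had an exact two-sided permutation p of 0.1, the smallest that 3 libraries against 3 allow, or 0.167 after Benjamini-Hochberg adjustment over the 10 pairs, so no pair could pass.

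In the other 4 pairs the ratios overlapped. Mup3 over Mup21 differed by 0.22 (6.92 ± 0.18 in KO against 6.70 ± 0.55 in WT on the log2 scale, SD, n = 3 each; exact permutation p = 0.6). Mup7 over Mup12 differed by -0.13 (4.96 ± 0.27 against 5.10 ± 0.61, exact permutation p = 0.9). Mup3 over Mup12 differed by 1.09 (exact permutation p = 0.2) and Mup12 over Mup21 by -0.87 (exact permutation p = 0.3). A p that misses the threshold does not show that these genes fell by equal amounts.

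**Figure D4:**
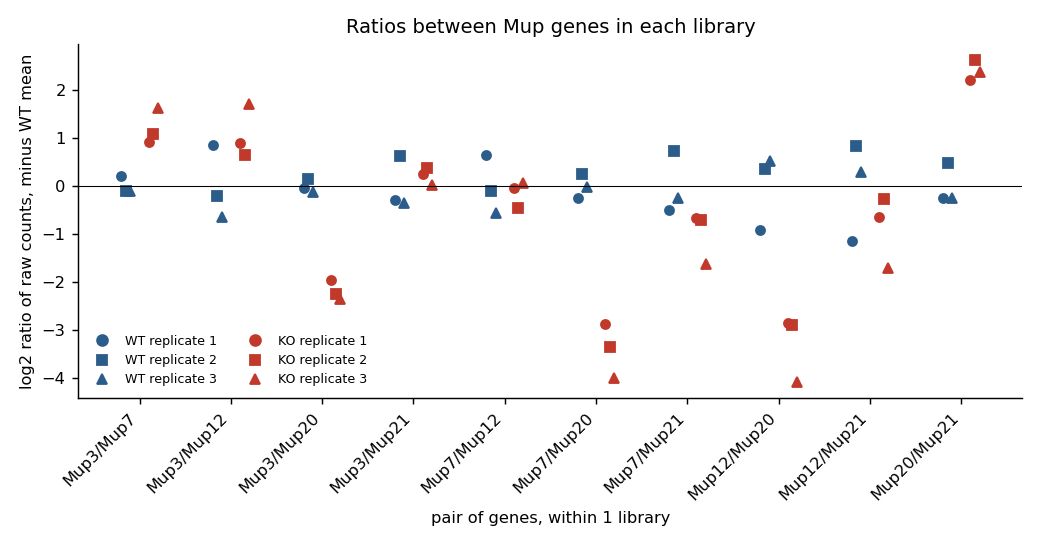
Log2 ratio of the raw counts of 2 Mup genes within each library, minus the WT mean of that ratio (vertical axis), for the 10 pairs (horizontal axis); points are libraries, marked by genotype and replicate. The KO points are displaced from WT in each pair with Mup20, by -3.41 for Mup7 over Mup20 and by 2.41 for Mup20 over Mup21, and lie among the WT points for Mup7 over Mup12.

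Levels of different genes were compared per kb of annotated exon. In WT the order was Mup20 (10917 ± 6006 CPM per kb, SD, n = 3), Mup3 (5798 ± 3697), Mup7 (1655 ± 1149), Mup21 (80.3 ± 29.3) and Mup12 (61.4 ± 45.02). Mup20 exceeded Mup3, and Mup3 exceeded Mup7, within each of the 6 libraries. Mup21 and Mup12 changed places between WT libraries, with Mup12 higher in WT replicate 2 (101 against 95.7 CPM per kb) and lower in WT replicates 1 and 3. In KO the level was 2997 ± 605 CPM per kb for Mup20, 345 ± 105 for Mup3, 42.1 ± 20.5 for Mup7, 4.54 ± 1.48 for Mup21 and 1.497 ± 0.657 for Mup12 (SD, n = 3 each). Reads lost or moved between copies would change these levels for Mup7 and Mup12 in particular.

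The spread among WT libraries was wide and shared. WT replicate 1 was the lowest WT library for all 5 genes and WT replicate 2 the highest for 4, with WT replicate 3 highest for Mup21. The highest WT library was 8.18 times the lowest for Mup12, 4.83 times for Mup7, 3.91 times for Mup3, 3.39 times for Mup20 and 2.12 times for Mup21. The median of that ratio over 11953 genes with a WT mean of at least 1 CPM was 1.35, and 6.05% of them varied at least as much as Mup20. Among KO libraries the highest was between 1.49 times (Mup20) and 2.48 times (Mup12) the lowest. KO replicate 1 was the highest KO library for all 5 genes.

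The count table held 15 other Mup rows, 10 of them lower in each KO library than in each WT library. For all tested genes that share was 16.6%, but only 3 of the 15 had enough counts to be tested. Of the 50-base words of Mup1 61.6%, of Mup9 79.1%, of Mup14 84.0% and of Mup15 100% occurred in other genes. For Mup4, Mup5 and Mup6 the share was lower (12.4%, 17.1% and 4.0%). Rows with much shared sequence are uncertain as single genes and not separate evidence. Mup14 was at 131, 468 and 489 CPM in WT and 25.1, 11.8 and 9.69 CPM in KO (log2 difference -4.55, SE 0.63, edgeR adjusted p = 0.0121). Mup1 was at 14.0, 98.8 and 55.6 CPM in WT and 3.51, 2.35 and 1.12 CPM in KO (log2 -4.59, SE 0.77, edgeR adjusted p = 0.021). Without KO replicate 2 or 3 neither passed (adjusted p of up to 0.101), and without KO replicate 1 or WT replicate 3 Mup1 did not. Mup1 was 24.0-fold lower in the full fit and 14.9-fold lower without WT replicate 2, and limma-voom did not call it (adjusted p = 0.0687). Mup9 was at 0.889, 2.91 and 25.7 CPM in WT and 0.338, 0.193 and 0.129 CPM in KO, so that its WT value rested on WT replicate 3, and it did not pass (log2 -5.45, SE 1.38, edgeR adjusted p = 0.0609, and log2 -3.06 without WT replicate 3), though it did without WT replicate 1 or 2 (adjusted p = 0.0255 and 0.0494) and with DESeq2 (adjusted p = 0.000852).

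Of the rows with too few counts to test, Mup2 had 3, 82 and 80 counts in WT and 0 in each KO library, Mup11 had 1, 56 and 39 against 0, and Mup15 had 9, 120 and 152 against 8, 3 and 2. Against a floor of 3 counts over the KO group (0.0412 CPM), the WT mean was 74.4 times the floor for Mup2. For Mup11 it was 43.6 times the floor (25.9 times without WT replicate 2). This holds for the means only, since WT replicate 1 was at 0.157 CPM for Mup2 and 0.0523 CPM for Mup11. Of their 50-base words, 78.2% and 77.8% occurred in other genes. For Mup15 WT replicate 1 had about as many counts as KO replicate 1. Mup8 had 8, 48 and 37 counts in WT and 6, 4 and 1 in KO, Mup13 had 4, 17 and 22 against 1, 2 and 2, and Mup6 had 8, 17 and 11 against 0, 0 and 6. Mup10 had 3, 2 and 10 counts in WT and 0 in KO, with a WT mean 6.53 times the same floor (3.31 times without WT replicate 3). The rows Mup4, Mup5, Mup16, Mup17 and Mup19 had fewer than 10 counts in all. With all 20 Mup rows summed, WT libraries were at 8143, 29984 and 17630 CPM and KO libraries at 3779, 2458 and 3412 CPM, a ratio of means of 5.78, close to that of the 5 genes.

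A further row, Gm2083, carries a symbol that RefSeq lists as a synonym of Mup13, although the table also has a row named Mup13. It had 51.8, 130 and 87.3 CPM in WT and 4.65, 2.01 and 2.54 CPM in KO (log2 difference -4.87, SE 0.46, edgeR adjusted p = 0.00429), and it held 5086 counts over the 6 libraries against 48 for the Mup13 row.

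Genes beside the cluster were compared with the Mup genes. Of 13 flanking genes listed, 8 had enough counts to test, all beyond the Mup21 end, and their log2 fold changes lay between -0.93 and 0.36 with a median of -0.38. Slc31a1, a copper transporter, fell (log2 -0.93, SE 0.12, edgeR adjusted p = 0.00909; it overlaps Cdc26 on the other strand, and the strand setting was not stated), and so did Alad, a heme synthesis enzyme (log2 -0.65, SE 0.13, edgeR adjusted p = 0.032). The other 6 did not pass, among them Fkbp15 at 0.36 (SE 0.14). Over all genes tested, 3.58% fell. Without KO replicate 2 none of the flanking genes passed and without any other single library only Slc31a1 did.

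**Figure D5:**
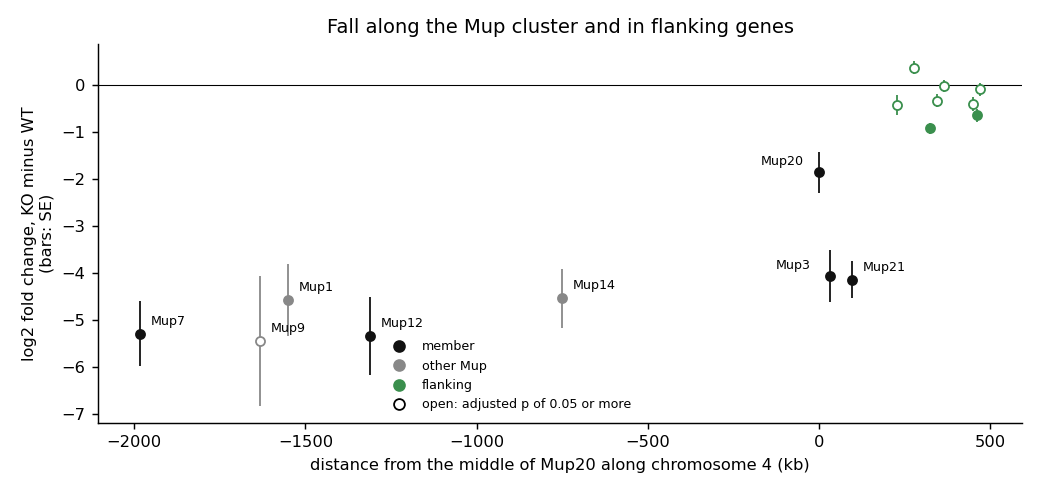
Log2 fold change of KO minus WT (vertical axis; bars are SE) against distance from Mup20 along chromosome 4 (horizontal axis, kb) for tested Mup genes (black and grey) and flanking genes (green); open points did not pass. Mup20 (-1.86) lies 33.2 kb from Mup3 (-4.07), and the flanking genes lie between -0.93 and 0.36.

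Genes whose pattern over the 6 libraries was most like that of the 5 Mup genes were found by the root mean square difference between centred log2 CPM profiles. The nearest was Cyp4a12b, a male-biased fatty acid omega-hydroxylase (0.245), followed by the carboxylesterase gene Ces3a (0.443), Gm2083 (0.504), Car3, a carbonic anhydrase (0.535), 1500017E21Rik (0.543), Sesn3 (0.549), Adh6-ps1 (0.582) and Slc22a28 of the organic anion transporter family (0.597). For comparison Mup3 differed from the mean of the 5 by 0.141, Mup21 by 0.338, Mup7 by 0.62, Mup12 by 0.637 and Mup20 by 1.13. These values describe 6 libraries in 2 genotypes and were not tested.

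Other male-biased liver genes had values that ran with those of the Mup genes. The summed CPM of 20 listed genes was 5598, 18684 and 10035 in WT replicates 1 to 3 and 2383, 1533 and 2018 in KO replicates 1 to 3, with WT replicate 1 the lowest and WT replicate 2 the highest WT library, as for the Mup sum. The list was chosen with earlier results of these data known. It holds Cyp4a12b and Slc22a28, picked above for profiles like those of the Mup genes, so its count is not independent of that pattern. Over all genes tested, 3.58% fell, 3.36% rose and the median log2 fold change was 0.0027. Of the 19 listed genes tested, 15 fell and none rose, with a median of -2.55. Without KO replicate 1 the number was 8 of 20, without KO replicate 2 it was 4, without KO replicate 3 it was 7, and without WT replicate 3 it was 10 of 19. Sult2a8, a bile acid sulfotransferase (log2 -4.96, SE 0.39, edgeR adjusted p = 0.00421), and Ugt2b1, a glucuronosyltransferase (log2 -2.55, SE 0.25, edgeR adjusted p = 0.00429), were among them.

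Known regulators of Mup transcription were read beside the Mup genes. Of 14 genes tested from the growth hormone and STAT5 list, 2 fell and 0 rose (median -0.47). Over all genes tested, 3.58% fell and 3.36% rose. Ghr, the growth hormone receptor, fell from 466 ± 82.4 to 141 ± 25.03 CPM (SD, n = 3 each; log2 -1.72, SE 0.20, edgeR adjusted p = 0.00626), and Lifr, a cytokine receptor subunit, fell by 1.39 (SE 0.30, edgeR adjusted p = 0.0408). Stat5b, which carries the signal to DNA, was at 53.7 ± 1.54 CPM in KO and 65.9 ± 11.1 CPM in WT (log2 -0.29, edgeR adjusted p = 0.225). Igf1 and Socs2, other targets of growth hormone, were at -0.58 (SE 0.22, adjusted p = 0.155) and -0.46 (SE 0.41, adjusted p = 0.525). Without KO replicate 2 no gene of this list passed, and without KO replicate 3 or WT replicate 3 the count that fell was 1. Without KO replicate 1, 1 gene fell and 1 rose.

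Among 6 genes of androgen, glucocorticoid and thyroid hormone action 3 fell and none rose (median -0.83), against 3.58% and 3.36% of all genes tested. They were Thrb, the beta thyroid hormone receptor (log2 -0.89, SE 0.12, edgeR adjusted p = 0.0113), Dio1, a deiodinase (log2 -2.16, SE 0.34, edgeR adjusted p = 0.0174), and Srd5a1, a steroid reductase (log2 -0.87, SE 0.21, edgeR adjusted p = 0.0473). Without KO replicates 1, 2 and 3 the number that fell was 2, 0 and 1, and without WT replicate 2 or 3 it was 2. None of 15 hepatocyte transcription factors passed with edgeR (median -0.23), and 2 had an unadjusted edgeR p under 0.05. Their log2 fold changes ran from -1.68 to 0.15. DESeq2 called 1 of them lower and limma-voom none. Hnf4a was at -0.14 (SE 0.20, edgeR adjusted p = 0.698). Zhx2, a regulator of several liver genes, was at -0.20 (SE 0.14, edgeR adjusted p = 0.397).

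Markers of other liver cells were measured beside the Mup genes, since fewer cells of a type and less RNA per cell cannot be told apart in whole tissue. Of 8 Kupffer and macrophage markers 2 rose (Clec4f and Vsig4), and their summed level was 1805 to 2296 CPM in KO and 871 to 1732 CPM in WT. Of 8 stellate cell markers 2 rose (Col1a1 and Dcn), with sums of 598 to 724 CPM in KO and 319 to 392.1 CPM in WT. Over all genes tested, 3.36% rose. None of 5 tested cholangiocyte markers passed (6 listed; 97.6 to 114 CPM in KO and 53.7 to 98.3 CPM in WT), nor any of 6 sinusoidal endothelial markers (139 to 311 and 269 to 367 CPM). At an unadjusted edgeR p under 0.05 there were 1 and 2 such markers, and DESeq2 and limma-voom called none of them. No listed marker of these cell types was at 0 in all libraries, and their part in the Mup values was not tested. Without KO replicate 1, KO replicate 2 or WT replicate 3 no Kupffer or stellate marker passed, without KO replicate 3 no Kupffer and 1 stellate marker did, without WT replicate 2 it was 1 of each, and without WT replicate 1 5 Kupffer markers passed.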

How the data were processed

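The authors deposited whole-number read counts per gene symbol, 1 column per library, with no normalization. The submitters' processing notes list mm10, edgeR 3.20.8, Subread 1.5.3, featureCounts and STAR 2.5, without roles. Annotation, strandedness and the counting of multi-mapping reads: not given in the sources used here.

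The whole table was fitted with edgeR 4.0.16 (R 4.3.3): filterByExpr (minimum count 10, minimum total 15), TMM, robust glmQLFit and two-sided quasi-likelihood F-tests of KO minus WT, Benjamini-Hochberg adjustment over 12945 genes and a threshold of 0.05. Each SE is |log2 fold change| over the square root of F. Replicates are numbered in accession order. The script was tested on simulated counts. Ratios between members used exact permutation tests on raw counts. Words of 50 bases, coding identity (Biopython 1.88, MAFFT) and positions came from GENCODE M21, promoters from RefSeq GRCm38.p6; figures used matplotlib 3.10.9.

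Members and lists were chosen with earlier results of these data known. Other genes named were Sesn3, up to 5 called genes of each list with the smallest p (the most abundant where under 3 passed), 8 fixed genes and the 8 nearest profiles; not all are printed, and 1 is not reported here. Cdc26 and Mup-ps19 were named after their overlap was seen. Alternatives were RLE, upper-quartile and no factors, totals without Mup rows, no filter, 1 CPM in 3 libraries, DESeq2 1.42.0, limma-voom (limma 3.58.1), no robust dispersion, added counts of 0.5 or 1, words of 100 bases and leaving out each library.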

Additional observations from a re-analysis of the deposited data

How the results depend on the processing

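Each Mup gene kept its direction under all 9 other settings and in the 6 fits without 1 library. Mup20 lost its call with upper-quartile factors (log2 -1.80), library size only (-1.63), a filter of 1 CPM in 3 libraries (-1.85), limma-voom (-1.72) and no robust dispersion (-1.86), at adjusted p between 0.0503 and 0.0546, and Mup12 with limma-voom (-4.96). Without 1 library the log2 fold change ran from -4.42 to -3.46 for Mup3, -5.75 to -4.63 for Mup7, -5.83 to -4.79 for Mup12, -2.20 to -1.39 for Mup20 and -4.42 to -3.90 for Mup21, and of these 30 fits 13 lost the call. The count of higher genes ran from 48 to 504 and that of lower genes from 53 to 475 without 1 library. Library size only gave 707 higher and 259 lower genes, with a median of all genes of 0.21 (log2), and DESeq2 gave 924 and 1040. The summed Mup ratio stayed between -2.86 and -1.97 (log2). Mup7 over Mup12 reversed without KO replicate 2 or WT replicate 1 (range -0.41 to 0.19); the other 9 pairs kept their sign. With words of 100 bases the shared part was 2.23% for Mup3, 76.1% for Mup7, 77.5% for Mup12, 38.8% for Mup20 and 4.50% for Mup21, as longer words match less often. For the other changes the cause was not tested. No paired analysis was possible because replicate numbers come from accession order.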

Other observations

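Other lipocalins of the liver had log2 fold changes between -2.27 and 1.17. Of 9 tested, C8g, a complement component, fell (log2 -0.81, SE 0.18, edgeR adjusted p = 0.0405) and none rose, while Rbp4, the retinol carrier, was at -0.25 (SE 0.26, adjusted p = 0.585) and Ambp at -0.35 (SE 0.19, adjusted p = 0.295). Without WT replicate 2, 3 lipocalins passed, and without any other single library none did. Of 22 abundant secreted proteins of hepatocytes 3 fell and none rose (median -0.50), and these were the protease inhibitors Serpina3k (log2 -2.30, SE 0.36, edgeR adjusted p = 0.0153), Serpina1c (-1.62, SE 0.29, 0.0234) and Serpina1d (-1.32, SE 0.26, 0.0314). Over all genes tested, 3.58% fell. Without KO replicate 2 or 3 none of the 22 passed, and without KO replicate 1 or WT replicate 3 1 did. Serpina genes have near-identical copies too.

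Of 8 tested female-biased liver genes 3 rose and none fell (median 2.26), against 3.36% and 3.58% of all genes tested. They were Prom1 (log2 4.18, SE 0.27, edgeR adjusted p = 0.00183), Abcd2, a peroxisomal transporter (2.72, SE 0.41, 0.0155), and Cyp2a4, a steroid hydroxylase (4.04, SE 0.69, 0.0224). Their list summed to 114 to 241 CPM in KO and 41.1 to 61.9 CPM in WT, and 10 of the 18 listed genes had too few counts to test. Without KO replicate 2 or WT replicate 3, 1 gene of this list passed, and without KO replicate 3 it was 2.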
